A study of Mus musculus with 11 samples.

Results

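The genes described here are the matrix metalloproteases (MMPs), the ADAMTS proteases and the tissue inhibitors of metalloproteases (TIMPs) in vascular endothelial cells sorted from mouse retinas. They were chosen by name as the protein-coding genes with symbols Mmp, Adamts or Timp followed by a number, and 47 of the 55359 genes counted met this rule. Of these, 23 are MMPs, 19 are ADAMTS proteases and 4 are TIMPs. The remaining gene, Mmp24os1, matches by its name but lies on the strand opposite to Mmp24 and is no protease, which leaves 46 proteases and inhibitors.

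The cells came from C57BL/6J mice of the oxygen-induced retinopathy (OIR) model, in which pups are kept in high oxygen and abnormal vessels then grow into the hypoxic retina. All 11 mice went through the model. At P12, 5 mice received 0.5 µL of oncostatin M (OSM), a cytokine of the interleukin 6 family, at 100 ng/µL (50 ng), and 6 mice received 0.5 µL PBS, in both cases into the vitreous. CD31+/CD45- cells were sorted at P17, with the 2 retinas of a mouse making up 1 sample. Litters 1 and 2 each gave 2 OSM and 2 PBS mice, and litter 3 gave 1 OSM and 2 PBS mice. OSM was given to mice 1 and 2 (litter 1), 5 and 6 (litter 2) and 9 (litter 3), and PBS to mice 3 and 4 (litter 1), 7 and 8 (litter 2) and 10 and 11 (litter 3). The methods mention PBS injections into contralateral eyes, whereas each mouse has a single treatment in the labels, and the labels were followed.

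MMPs and ADAMTS proteases are enzymes that use a zinc ion to cut proteins of the extracellular matrix. Both are made as inactive precursors, and TIMPs bind to the active site and block it. A sprouting vessel opens and rebuilds its basement membrane, and the proteases on the endothelial surface, the inhibitors stored in the matrix and the collagens and laminins they act on are all part of this process.

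The zinc ion is held by 3 histidines spaced along a short stretch of the protein, and a script found this pattern in all 42 proteases. The coding DNA of this site is shown for the 4 MMPs and the 5 ADAMTS genes with the highest levels in the sorted cells, read from GENCODE transcripts on GRCm39, 5′ to 3′ along the gene, with the codons of the 3 histidines and of the residue at position 8 of the site in capitals.
Mmp14 (chr14:54675084-54675116, plus strand): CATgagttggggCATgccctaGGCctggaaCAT
Mmp25 (chr17:23851817-23851849, minus strand): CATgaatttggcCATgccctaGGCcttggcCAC
Mmp15 (chr8:96095213-96095245, plus strand): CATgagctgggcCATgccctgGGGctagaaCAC
Mmp28 (chr11:83335747-83335779, minus strand): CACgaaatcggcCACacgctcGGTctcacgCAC
Adamts1 (chromosome 16, minus strand): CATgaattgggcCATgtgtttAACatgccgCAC
Adamts4 (chromosome 1, plus strand): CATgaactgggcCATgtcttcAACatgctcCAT
Adamts8 (chromosome 9, plus strand): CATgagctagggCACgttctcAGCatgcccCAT
Adamts9 (chromosome 6, minus strand): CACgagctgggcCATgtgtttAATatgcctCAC
Adamts10 (chromosome 17, plus strand): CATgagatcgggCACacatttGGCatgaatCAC
The 5 ADAMTS sites are joined from neighbouring exons and have no single genomic interval. The codon at position 8 reads glycine in all 23 MMPs and in 13 ADAMTS genes, asparagine in 5 ADAMTS genes (Adamts1, Adamts4, Adamts9, Adamts15 and Adamts20) and serine in 1 (Adamts8). The 5 asparagine genes summed to a mean level of 57.9 CPM per kilobase, of which Adamts1 gave 45.1 and Adamts4 10.8, and the 13 glycine genes summed to 7.26. CPM are counts scaled to a common library size after TMM normalization, and levels of different genes were compared only after division by the length of the exons in kilobases. The sum of the glycine genes depends on this length. Adamts10 gave 4.63 of it, and had 14.6 by the length of its canonical transcript.

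Some MMP precursors carry a cleavage site for furin-like enzymes and can be activated before they reach the cell surface. The pattern searched was arginine, any residue, lysine or arginine, and arginine, after the precursor's cysteine switch, where found. The search ended short of the zinc-binding site, so it can reach into the catalytic domain. The coding DNA of the last match is shown for the 6 MMPs with reads in every mouse, since all of them carry the pattern. Mmp15 had 3 matches, Mmp25 had 2 and the others had 1 each. Whether a match shown is the site that furin cuts was not checked.
Mmp14 (chr14:54673659-54673670, plus strand): CGGAGGAAGCGC
Mmp25 (chr17:23859160-23859171, minus strand): CGCCGACGTCGC
Mmp15 (chr8:96094677-96094688, plus strand): CGGCTACGAAGG
Mmp28 (chr11:83342225-83342236, minus strand): CGTAAGAAACGC
Mmp11 (chr10:75764161-75764172, minus strand): CGACAGAAGCGC
Mmp17 (chr5:129672089-129672100, plus strand): AGAAGGAAGCGG
Of 10 MMPs with the pattern, 6 had reads in all 11 mice and 4 in some mice. Of 13 MMPs without it, 0 had reads in all mice, 6 had reads in some and 7 had no read. As a summed level, MMPs with the pattern had 94.7 CPM per kilobase and MMPs without it 6.37, most of which was Mmp2. In the ADAMTS family, 18 of 19 genes carry the pattern.

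The libraries held 26697990 to 56033479 counted reads (median 32500202), and the gene totals do not count molecules because copies made by PCR were not told apart. Summed endothelial markers (Pecam1, Cdh5, Vwf and 7 others) were 13970 to 18400 CPM in OSM mice and 13070 to 17260 in PBS mice, with all 10 detected in every mouse. Leukocyte markers summed to 0.402 to 17.96 CPM with OSM and to 0.474 to 81.2 with PBS, with PBS mice 4 (81.2) and 3 (34.1) highest. Mural cell markers were 424 to 882 CPM (median 508) with OSM and 331 to 1819 (median 970) with PBS, and fibroblast markers 9.57 to 48.0 (median 15.6) and 17.3 to 91.3 (median 69.2), with Dpt at 0 in all mice. Markers of red cells and platelets were 360 to 1132 CPM (median 623) with OSM and 123 to 598 (median 273) with PBS. Rod markers were 193 to 5094 CPM with OSM, highest in mouse 5, and 342 to 1411 with PBS. Summed markers of Müller cells and astrocytes were 188 to 337 CPM with OSM and 161 to 298 with PBS. Most of this sum was Glul (159 to 279 CPM), the only 1 of the 6 markers with reads in every mouse. Neuron markers summed to 6.19 to 107 CPM with OSM and 10.2 to 42.9 with PBS. Those of the pigment epithelium were 1.84 to 13.1 and 2.69 to 14.1, with Tyrp1 at 0. In bulk samples, fewer cells of a type and less RNA per cell cannot be told apart. PBS mouse 3 had reads for 36 of the 47 genes and for 20898 genes in all, and the other mice had reads for 20 to 29 of the 47 and for 16635 to 17697 genes.

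Of the 47 genes, 16 had reads in all 11 mice, 23 in some mice and 8 in none. The 16 were 6 MMPs (Mmp11, Mmp14, Mmp15, Mmp17, Mmp25 and Mmp28), 6 ADAMTS genes (Adamts1, Adamts4, Adamts8, Adamts9, Adamts10 and Adamts12), 3 TIMPs (Timp1, Timp2 and Timp3) and Mmp24os1. The genes without a read were Mmp1a, Mmp1b, Mmp3, Mmp7, Mmp8, Mmp10, Mmp12 and Adamts20. A count of 0 allows up to 3 reads, which is 0.0536 to 0.114 CPM in a single mouse and 0.008 CPM over all mice together, for counting error only. Another 8 genes had 1 to 10 reads in all mice together, and most of these reads were in PBS mouse 3 or 4. These were Mmp13 and Mmp27 (3 reads each), Mmp20 (5), Mmp24 (8), Adamts13 (3), Adamts14 (1), Adamts18 (6) and Adamts19 (10). Adamts13 cleaves von Willebrand factor, whose gene Vwf had a mean of 2526 CPM in the same cells.

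**Figure D1:**
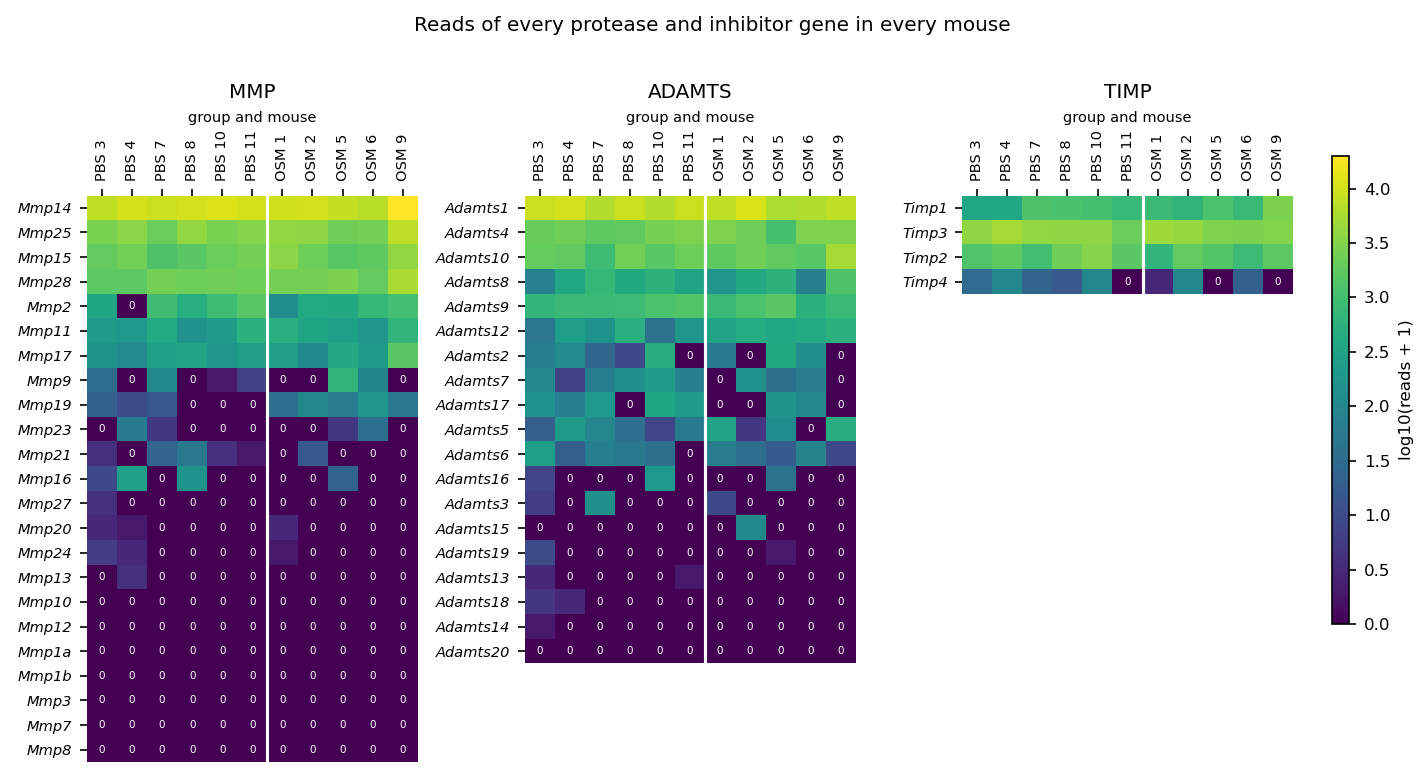
Reads of each of the 46 protease and inhibitor genes (rows, ordered by level within a family) in each of the 11 mice (columns, PBS left and OSM right of the white line), coloured by log10(reads + 1), with 0 marked. The upper rows of each family are filled in every mouse, and 7 MMPs and Adamts20 are at 0 throughout.

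A group of MMP genes, with collagenases and stromelysins among them, lies side by side on chromosome 9, and this cluster was nearly silent. Its 10 genes (Mmp13, Mmp12, Mmp1b, Mmp3, Mmp1a, Mmp10, Mmp8, Mmp27, Mmp20 and Mmp7) span chr9:7272514-7699587, 427074 bases, and gave 11 reads together in all 11 mice. The 13 MMPs outside the cluster gave 224007 reads. Of the 10, 7 were at 0 in every mouse. None of the 10 carries the furin pattern, so they make up most of the MMPs without it.

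Genes found in some mice differed in how far a single library carried them. Of the 16 genes with reads in 1 to 10 mice and at least 10 reads in total, 8 had at least 50% of their reads in 1 mouse. The share of the highest mouse had a median of 46.6%, and for Mmp2 it was 21.7%. Adamts15 had all of its 113 reads in OSM mouse 2. Adamts3 had 141 of 154 reads (91.6%) in PBS mouse 7, and Mmp9, the gelatinase made in quantity by neutrophils and macrophages, had 646 of 885 (73.0%) in OSM mouse 5. The CPM of Mmp9 were 22.0 in that mouse, 2.97 in OSM mouse 6, 3.53 in PBS mouse 7, 1.22 in PBS mouse 3 and at most 0.188 in the other mice, 5 of them at 0. In OSM mouse 5 the summed leukocyte markers were 17.96 CPM and the rod markers 5094, both the highest of the OSM mice, and their part in the Mmp9 level was not tested. PBS mouse 4 had the highest leukocyte sum (81.2 CPM, of which Lyz2 alone gave 67.0) and no Mmp9 read. Which cells the Mmp9 reads came from was not tested.

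Mmp14 and Adamts1 had the highest mean levels. Mmp14 (ENSMUSG00000000957, chromosome 14, 54668878 to 54682821) encodes a protease anchored in the cell membrane that cuts collagen at the cell surface and, together with TIMP2, activates the gelatinase MMP2. Its level was 49.4 ± 6.22 CPM per kilobase (SD, n = 11), higher than 95.6% of the 17050 genes tested. Adamts1 (ENSMUSG00000022893, chromosome 16, 85590579 to 85600009), a secreted protease that cuts proteoglycans and is known to restrain angiogenesis, had 45.1 ± 12.3 (SD, n = 11). These 2 genes gave 45.4% of the summed level of all 46 proteases and inhibitors. Mmp14 was above Adamts1 in 6 of 11 mice, so their order is not settled, whereas Adamts1 was above the next gene, Mmp25, in 11 of 11.

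Mmp25 (ENSMUSG00000023903, chromosome 17, 23847285 to 23864251), a protease held in the membrane by a lipid anchor and best known from neutrophils, had 19.0 ± 3.74 CPM per kilobase (SD, n = 11). It was detected at 66.6 to 131 CPM in every mouse. OSM mice 1 and 2, with leukocyte sums of 0.402 and 0.406 CPM, had 113.6 and 113.4 CPM. The part of leukocytes in its level was not tested. Timp1 followed with 14.7 ± 5.99, Timp3 with 13.8 ± 3.98, Mmp15 with 12.1 ± 3.22, Mmp24os1 with 11.2 ± 1.34, Adamts4 with 10.8 ± 3.11, Timp2 with 10.8 ± 4.84 and Mmp28 with 9.78 ± 1.95 (CPM per kilobase, SD, n = 11). From Mmp25 to Mmp28, each gene exceeded the next in 5 to 8 of 11 mice, so neighbours do not differ beyond their spread. Below a step after Mmp28, which was above Mmp2 in 10 of 11 mice, came Mmp2 (5.25 ± 3.71), Adamts10 (4.63 ± 1.34), Mmp11 (2.82 ± 1.16), Adamts8 (2.65 ± 1.53), Adamts9 (1.97 ± 0.750), Mmp17 (1.32 ± 0.973) and Adamts12 (0.801 ± 0.454). The 22 proteases with reads in only some mice include Mmp2 at 10 mice, and the others had at most 0.734 CPM per kilobase (Mmp9). As an alternative added after the data were seen, levels were divided by the length of the canonical transcript in place of all exons. Mmp14 and Adamts1 kept the first and second place and 9 of the first 10 genes were shared, with Timp1 and Timp3 moving above Mmp25. Adamts10 moved from rank 12 to rank 8 with 14.6 CPM per kilobase, so its place below the step depends on the length used.

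**Figure D2:**
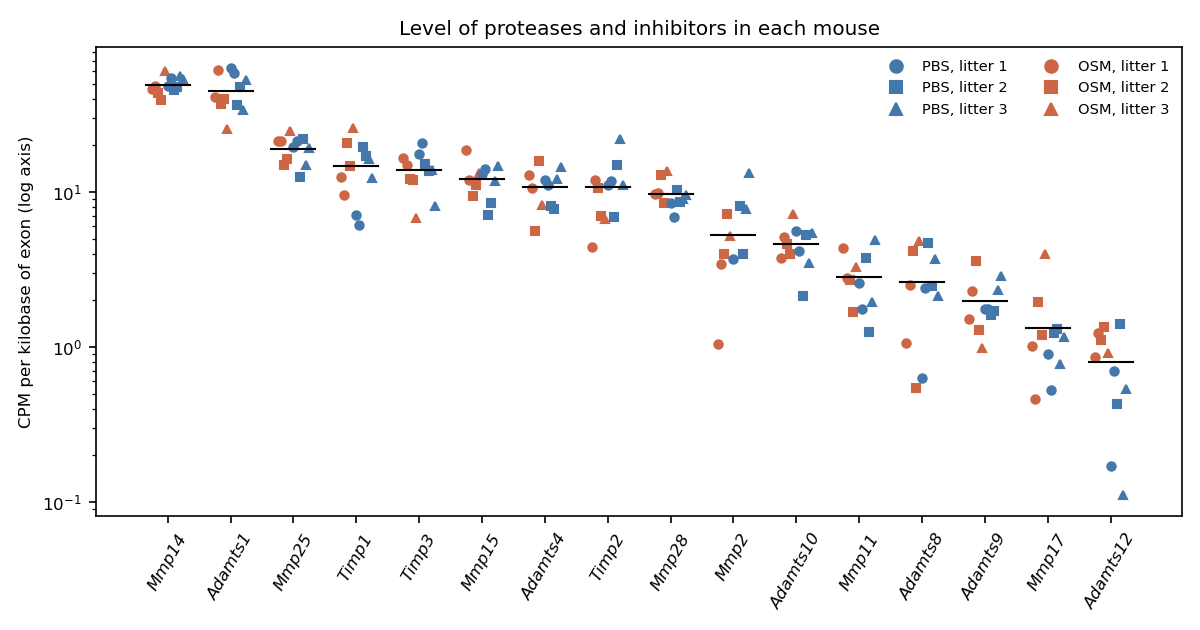
Level in CPM per kilobase of exon (log axis) of the 16 proteases and inhibitors with reads in at least 10 mice and a mean above 0.5, 1 point per mouse, coloured by treatment and shaped by litter, with the mean as a bar. The means of Mmp14 and Adamts1 lie above all others, with Timp1 (25.7) just above Adamts1 (25.5) in OSM mouse 9, and the read-free PBS mouse 4 is not drawn for Mmp2.

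Mmp14 was also the steadiest protease. Its CPM in PBS mice 3, 4, 7, 8, 10 and 11 were 295.6, 334.5, 279.8, 291.4, 347.4 and 330.9, and in OSM mice 1, 2, 5, 6 and 9 they were 284.9, 295.9, 268.9, 243.1 and 374.5. The groups overlap, and the highest mouse had 1.54 times the lowest. The coefficient of variation over the 11 mice was 12.6% for Mmp14 and 19.7% for Mmp25, and 40.7% for Timp1, 44.9% for Timp2, 57.8% for Adamts8 and 73.6% for Mmp17. Over the 16 genes with reads in all mice its median was 28.9%. Within groups, the median SD of log2 CPM was 0.47 for these 16 genes and 0.45 for the 11408 tested genes of the whole table with reads in every mouse.

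By family, MMPs gave 48.5% ± 4.17 of the summed level per kilobase, ADAMTS proteases 32.5% ± 4.87 and TIMPs 19.0% ± 3.23 (SD, n = 11). The MMP share was 50.3% ± 5.34 in OSM mice (n = 5) and 47.1% ± 2.53 in PBS mice (n = 6). The ADAMTS share was 31.3% ± 5.80 and 33.4% ± 4.25, and the TIMP share 18.4% ± 2.09 and 19.5% ± 4.08. Each of these differences between treatments was smaller than the larger of the 2 SDs.

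Whether OSM changed these genes was tested in edgeR by a quasi-likelihood fit that held litter as a term beside treatment, over the 17050 genes left by a filter on low counts. Of the 47 genes 29 passed it, 16 with reads in all mice and 13 with reads in some. At an adjusted p under 0.05 (Benjamini-Hochberg), 0 of the 29 differed between OSM and PBS, as did 0 (0%) of all genes tested. An unadjusted p under 0.05 was found for 4 of 29 genes (13.8%; all genes 4.96%), of which 3 were higher with OSM (all genes 2.25%) and 1 lower (all genes 2.71%). This count was 8 without PBS mouse 7 and 0 without OSM mouse 9. Log2 fold changes above 0 were found for 13 of 29 (44.8%; all genes 48.4%), with a median of -0.07 against -0.01 over all genes tested. In each of the 3 litters, 4 of 29 were higher with OSM (all genes 11.3%) and 6 lower (all genes 11.8%). Every OSM mouse was above every PBS mouse for 1 gene, Mmp19 (all genes 0.182%), and below every PBS mouse for 0 (all genes 0.223%). A Wald test in DESeq2, run on unfiltered counts, called 1 of 32 genes, Adamts17 (all genes 0.763%), and edgeR called 0 of 29 with a lowest adjusted p of 0.955.

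The families did not move as blocks. Of 12 MMPs tested, 6 had a log2 fold change above 0 and 6 below (median 0.02). Of 12 ADAMTS genes, 5 were above and 7 below 0 (median -0.18), and none had an unadjusted p under 0.05. Of the 4 TIMPs, 1 was above and 3 below 0 (median -0.49). Among the 16 genes with reads in all mice, 11 were above and 5 below 0, with a median of 0.08. Of the 11408 tested genes of the whole table with reads in every mouse, 5727 were above and 5681 below 0, with a median of 0.0009.

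**Figure D3:**
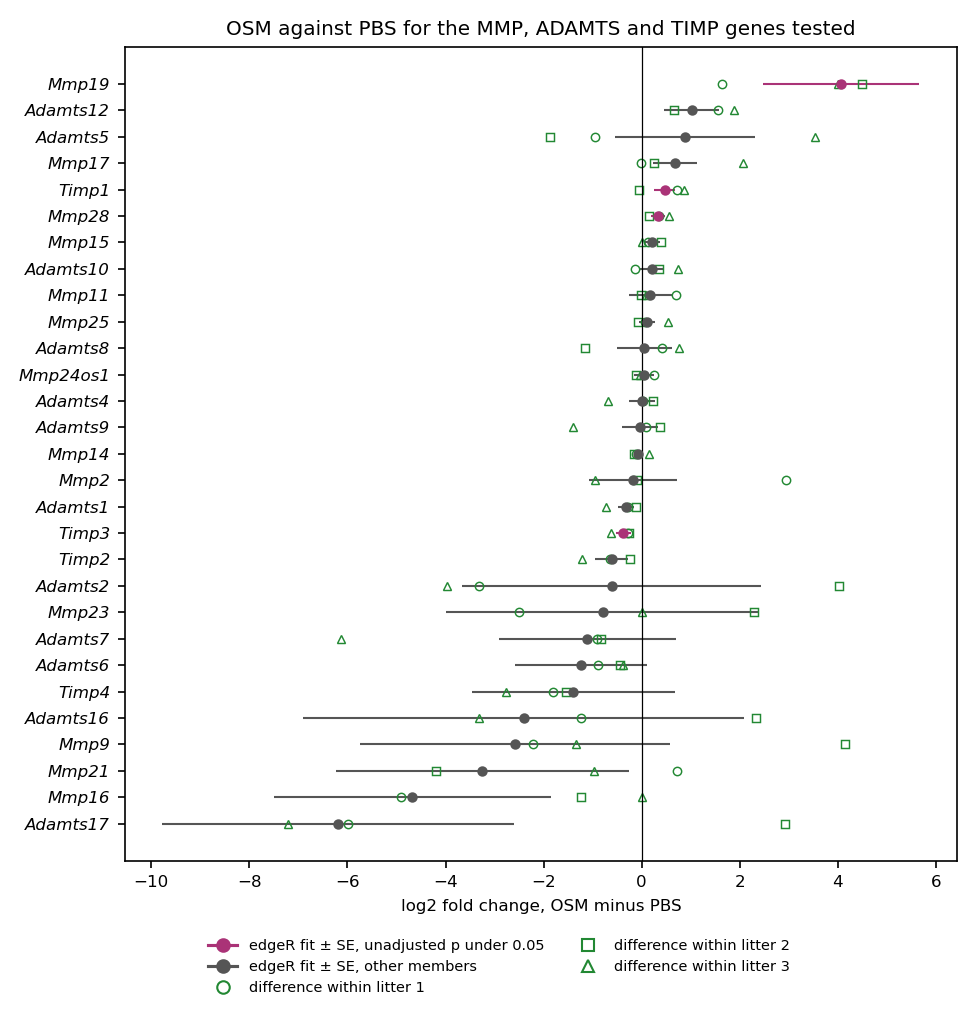
Log2 fold change (OSM minus PBS) of the 29 genes tested, as edgeR's estimate with litter as a term (filled points, bars are 1 SE; purple where the unadjusted p is under 0.05) and as the difference of mean log2 CPM within each litter (open symbols). Of the 29 estimates 13 lie above 0, and the wide bars belong to genes with reads in only some mice.

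Timp3 was lower and Timp1 higher with OSM at an unadjusted p under 0.05, and neither passed the adjustment over all genes. Timp3 (ENSMUSG00000020044, chromosome 10, 86136236 to 86185371) encodes the inhibitor that stays bound to the matrix and also blocks VEGF from its receptor, and its mutations cause an inherited macular dystrophy in humans. Its CPM in PBS mice 3, 4, 7, 8, 10 and 11 were 144, 167, 124, 112.0, 112.2 and 66.1, and in OSM mice 1, 2, 5, 6 and 9 they were 135, 122, 98.5, 97.6 and 55.7. In each litter every OSM mouse lay below every PBS mouse, whereas the groups overlap across litters. How many of all genes tested are separated in this way within litters was not counted. Litter means were 142 CPM in litter 1, 108 in litter 2 and 78.0 in litter 3. The log2 fold change was -0.37 ± 0.15 (SE; edgeR, adjusted p = 0.955), with -0.28, -0.26 and -0.63 in litters 1, 2 and 3. In GENCODE vM39, 21.3% of its exon bases lie also in exons of Syn3 on the other strand. Reads that overlapped both genes in the models used for counting were left out.

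Timp1 (ENSMUSG00000001131, chromosome X, 20736316 to 20740976), a secreted inhibitor whose transcription is known to respond to cytokines of the interleukin 6 family, had 13.9, 11.99, 38.2, 33.6, 31.9 and 24.1 CPM in PBS mice 3, 4, 7, 8, 10 and 11. In OSM mice 1, 2, 5, 6 and 9 it had 24.4, 18.7, 40.7, 28.9 and 50.3 CPM. Every OSM mouse was above the PBS mice in litters 1 and 3, and the groups overlapped in litter 2. The log2 fold change was 0.47 ± 0.21 (SE; edgeR, adjusted p = 0.955), with 0.72, -0.06 and 0.86 in the 3 litters. Litter means were 17.2, 35.3 and 35.5 CPM, lowest in litter 1, where Timp3 was highest.

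Timp2 (ENSMUSG00000017466, chromosome 11, 118191887 to 118246566), the partner of the Mmp14 protein in activating MMP2, had 30.8 to 98.7 CPM (median 51.0) in PBS mice and 19.7 to 53.5 (median 31.2) in OSM mice. It was lower with OSM in each litter (-0.65, -0.23 and -1.22 on the log2 scale), with a log2 fold change of -0.61 ± 0.34 (SE; edgeR, adjusted p = 0.970). Timp4 had reads in 8 mice, at most 3.19 CPM, and a log2 fold change of -1.39 ± 2.06 (SE).

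**Figure D4:**
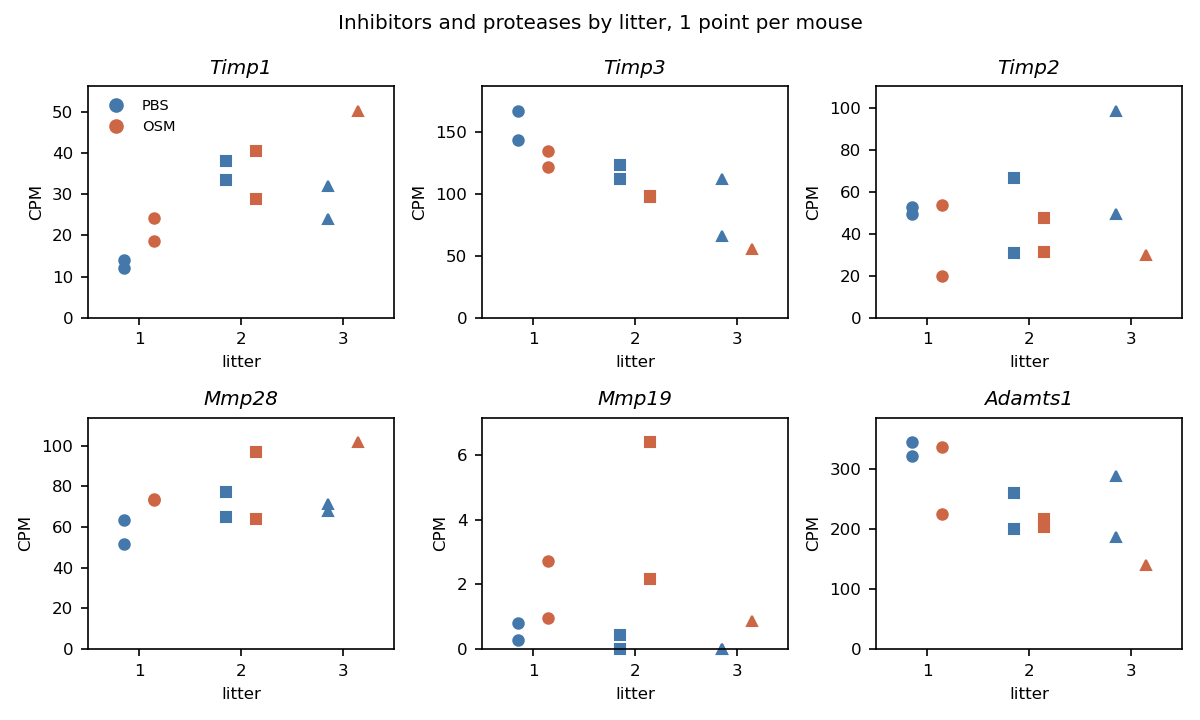
CPM (linear axis from 0) of 3 inhibitors and 3 proteases in each mouse, by litter, with PBS on the left and OSM on the right within a litter. For Timp3 the OSM mice lie below the PBS mice of their litter, and for Mmp19 above them.

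Among the membrane-bound MMPs, Mmp14 had a log2 fold change of -0.07 ± 0.08 (SE; edgeR, adjusted p = 1), with -0.12, -0.16 and 0.14 in litters 1, 2 and 3. Mmp25 had 103.8, 113.2, 66.6, 116.2, 79.4 and 102.5 CPM in PBS mice 3, 4, 7, 8, 10 and 11 and 113.6, 113.4, 79.5, 86.6 and 131 in OSM mice 1, 2, 5, 6 and 9. The groups overlap, and the log2 fold change was 0.11 ± 0.16 (SE; edgeR, adjusted p = 1). Its sign turned negative without OSM mouse 9 (-0.04).

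Mmp15 (ENSMUSG00000031790, chromosome 8, 96078895 to 96101708), another membrane-bound collagen-cutting protease, had 70.5, 76.1, 38.4, 45.7, 63.1 and 79.5 CPM in PBS mice 3, 4, 7, 8, 10 and 11. In OSM mice 1, 2, 5, 6 and 9 it had 101, 64.3, 51.3, 59.7 and 71.4 CPM, within the PBS range except for mouse 1. On the log2 scale the difference was 0.22 ± 0.15 (SE; edgeR, adjusted p = 1). Of the lower membrane-bound genes, Mmp17 had 3.72 to 9.18 CPM with PBS and 3.22 to 27.9 with OSM, highest in mouse 9, and a log2 fold change of 0.68 ± 0.44 (SE). Mmp16 had reads in 4 mice and at most 8.42 CPM, with a log2 fold change of -4.67 ± 2.82 (SE).

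The secreted protease Mmp28 (ENSMUSG00000020682, chromosome 11, 83330646 to 83353986), also called epilysin, had 63.5, 51.9, 77.1, 64.8, 67.7 and 71.2 CPM in PBS mice 3, 4, 7, 8, 10 and 11. In OSM mice 1, 2, 5, 6 and 9 it had 73.1, 73.8, 97.04, 63.8 and 102 CPM. The groups overlap, with OSM mice 1, 2 and 6 below PBS mouse 7, and the 2 highest of all mice were OSM mice 9 and 5. Across litters the log2 fold change was 0.34 ± 0.14 (SE; edgeR, adjusted p = 0.955), with 0.36, 0.15 and 0.55 in litters 1, 2 and 3.

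Mmp19 (ENSMUSG00000025355, chromosome 10, 128626773 to 128636695), a secreted protease that cuts basement membrane proteins, was the gene whose groups did not overlap, at a low level. It had 0.948, 2.73, 2.18, 6.39 and 0.876 CPM in OSM mice 1, 2, 5, 6 and 9, and 0.797, 0.282 and 0.429 CPM in PBS mice 3, 4 and 7. PBS mice 8, 10 and 11 had no read. The lowest OSM mouse and the highest PBS mouse lie close together, and all 11 mice together gave 467 reads. With litter as a term, the log2 fold change was 4.06 ± 1.60 (SE; edgeR, adjusted p = 0.955), and within litters 1, 2 and 3 it was 1.63, 4.49 and 3.99. The adjusted p was 0.0643 with DESeq2. Of its exon bases, 36.8% are shared with Tmem198b and a long noncoding RNA on the other strand, and red cell and platelet markers were also higher at the median with OSM (623 against 273 CPM), whose part in this was not tested.

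Mmp2, the gelatinase that Mmp14 and Timp2 serve, had 13.1, 28.8, 14.0, 27.3 and 47.1 CPM in PBS mice 3, 7, 8, 10 and 11 and no read in PBS mouse 4. OSM mice had 3.71 to 25.6 CPM, and the log2 fold change was -0.17 ± 0.90 (SE; edgeR, adjusted p = 1). PBS mouse 11, highest for Mmp2, was also highest for mural (1819 CPM) and fibroblast (91.3 CPM) markers, and the part of these cells was not tested. Mmp11, a secreted MMP that furin activates, had 4.39 to 17.3 CPM with PBS and 5.97 to 15.3 with OSM, and a log2 fold change of 0.18 ± 0.43 (SE). The log2 fold changes of the rarely detected Mmp9, Mmp21 and Mmp23 were -2.58 ± 3.16, -3.25 ± 2.99 and -0.80 ± 3.20 (SE), with 6, 6 and 4 mice with reads.

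Adamts1 had 343.6, 320.4, 199, 260.1, 186.2 and 287.3 CPM in PBS mice 3, 4, 7, 8, 10 and 11, and 224.3, 336.2, 202.1, 216.5 and 139.6 in OSM mice 1, 2, 5, 6 and 9. The groups overlap widely, with OSM mouse 2 near the top and OSM mouse 9 lowest of all. On the log2 scale the difference was -0.33 ± 0.16 (SE; edgeR, adjusted p = 0.955), with -0.27, -0.12 and -0.73 in litters 1, 2 and 3. Its neighbour on chromosome 16, Adamts5, an aggrecan-cutting protease, had reads in 10 mice at up to 9.13 CPM and a log2 fold change of 0.88 ± 1.43 (SE).

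Adamts4 (ENSMUSG00000006403, chromosome 1, 171077986 to 171089841), the other aggrecanase, had 77.2, 71.7, 52.8, 50.4, 78.2 and 93.4 CPM in PBS mice 3, 4, 7, 8, 10 and 11. In OSM mice 1, 2, 5, 6 and 9 it had 83.7, 68.2, 36.0, 102 and 53.3 CPM, with mice 6 and 5 as the highest and lowest of all. Across litters the log2 fold change was 0.01 ± 0.26 (SE; edgeR, adjusted p = 1), and its sign turned without the litter term (-0.04). Mmp24os1 had 15.5, 16.3, 16.5, 21.2, 19.6 and 22.1 CPM in PBS mice 3, 4, 7, 8, 10 and 11 and 18.6, 19.4, 18.6, 15.9 and 20.2 in OSM mice 1, 2, 5, 6 and 9, with a log2 fold change of 0.04 ± 0.20 (SE). Its partner Mmp24 had 8 reads in all, and 42.3% of the exon bases of Mmp24os1 lie in Mmp24.

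Adamts12, which cuts cartilage matrix protein, was higher with OSM in each litter (1.56, 0.65 and 1.87 on the log2 scale). OSM mice had 9.39 to 14.7 CPM (median 12.1) and PBS mice 1.21 to 15.4 (median 5.25), so that the PBS mice held both the lowest and the highest value. With litter as a term, the log2 fold change was 1.02 ± 0.56 (SE; edgeR, adjusted p = 0.961). Adamts9 had 24.3 to 43.2 CPM with PBS and 14.8 to 54.3 with OSM, Adamts10, which helps to build fibrillin microfibrils, 28.0 to 74.0 and 49.6 to 95.0, and Adamts8 3.00 to 22.1 and 2.58 to 22.7. Their log2 fold changes were -0.03 ± 0.36, 0.21 ± 0.25 and 0.06 ± 0.56 (SE). For Adamts2, which trims procollagen, Adamts6, Adamts7 and Adamts16, the log2 fold changes were between -2.40 and -0.61 with SEs of 1.34 to 4.50.

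Adamts17, described because DESeq2 called it, had 5.58 and 3.49 CPM in OSM mice 5 and 6 and no read in OSM mice 1, 2 and 9. In PBS mice 3, 4, 7, 10 and 11 it had 6.11, 2.19, 5.92, 10.4 and 7.18 CPM, and in PBS mouse 8 it had none. The groups overlap, and the zeros sit in both treatments. DESeq2 gave a log2 fold change of -7.76 (adjusted p = 0.00636), and edgeR -6.19 ± 3.58 (SE; adjusted p = 0.984). The difference turned between litters, with -5.99, 2.92 and -7.21 in litters 1, 2 and 3.

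Litter, which is 1 OIR run each, was tested in the same way. At an adjusted p under 0.05, 0 of 29 genes differed between litters (all genes 0.0176%), and 5 of 29 (17.2%; all genes 10.3%) had an unadjusted p under 0.05. They were Timp3 (edgeR, adjusted p = 0.144), Timp1 (adjusted p = 0.171), Mmp15 (adjusted p = 0.237), Mmp14 (adjusted p = 0.289) and Adamts1 (adjusted p = 0.346), all among the 6 highest of the 47 by level. Mean CPM in litters 1, 2 and 3 were 306, 219 and 204 for Adamts1, 78.0, 48.7 and 71.3 for Mmp15 and 303, 271 and 351 for Mmp14. A treatment effect that differs between litters was called for 0 of 29 genes (all genes 0%), and 1 of 29, Adamts17 (edgeR, adjusted p = 0.704), had an unadjusted p under 0.05 (all genes 6.42%).

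Activators of these proteases and genes that work with them, a list that also holds the inducer Bsg and the receptor Plaur, were compared next. Of 9 listed, 8 were tested, 5 with a log2 fold change above 0 and 3 below. Bsg, the surface protein that induces MMPs in neighbouring cells, had the highest level of 4434 CPM per kilobase, Plat, the tissue plasminogen activator, had 84.5, and Furin 9.92. Plg, the gene of plasminogen, had no read. Pcsk7, a furin-like enzyme, had the only unadjusted p under 0.05 in this group, with a log2 fold change of -0.43 ± 0.17 (SE; edgeR, adjusted p = 0.955).

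Of 9 other inhibitors and clearance receptors, 7 were tested, 3 above and 4 below 0, and the highest was Spock2 with 108 CPM per kilobase. Serpine2, which inhibits thrombin and plasminogen activators, had 69.7 ± 15.2 CPM with OSM (n = 5) and 128 ± 56.6 with PBS (n = 6) (SD), a log2 fold change of -0.80 ± 0.24 (SE; edgeR, adjusted p = 0.955). Lrp1, the receptor that takes up protease and inhibitor complexes, had 6.78 ± 6.29 and 30.8 ± 14.6 CPM (SD) and -2.06 ± 0.80 (SE; edgeR, adjusted p = 0.955). Both Lrp1 and Serpine2 are also made by mural cells and fibroblasts, whose summed markers were lower at the median with OSM (mural 508 against 970 CPM), and their part was not tested. Reck, an inhibitor anchored in the membrane, had 3.37 CPM per kilobase and a log2 fold change of 0.11 ± 0.34 (SE).

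Of 9 ADAM proteases, the relatives that release proteins from the cell surface, 7 were tested, 2 above and 5 below 0. Adam10 was highest with 80.6 CPM per kilobase, and Adam17 had an unadjusted p under 0.05 with a log2 fold change of -0.40 ± 0.17 (SE; edgeR, adjusted p = 0.955). Of 7 ADAMTS-like genes, which lack the protease domain, 5 were tested, 1 above and 4 below 0. Adamtsl2 was highest with 23.7 CPM per kilobase, and Adamtsl5, with reads in 5 mice, had an unadjusted p under 0.05 with a log2 fold change of -6.51 ± 2.08 (SE; edgeR, adjusted p = 0.955).

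The basement membrane proteins that these enzymes act on were abundant, and all 10 listed were tested. Col4a1, a chain of type IV collagen, was highest with 1015 CPM per kilobase. All 10 log2 fold changes were below 0, from -0.26 for Lama5 to nearly 0 for Nid1, where 48.4% of all genes tested were above 0. Summed markers of mural cells (508 against 970 CPM) and fibroblasts (15.6 against 69.2 CPM), which also make basement membrane, were lower at the median with OSM too, and their part was not tested. Col4a2 (-0.22 ± 0.09), Lamb1 (-0.21 ± 0.08) and Lamc1 (-0.23 ± 0.10) were the 3 of 10 with an unadjusted p under 0.05 (all genes 4.96%; log2 fold change ± SE; edgeR, adjusted p = 0.955 for each). Of 10 substrates of ADAMTS proteases, 8 were tested, 2 above and 6 below 0. Vwf was highest with 151 CPM per kilobase, and Col1a2, also a fibroblast marker, had an unadjusted p under 0.05 with -1.31 ± 0.56 (SE; edgeR, adjusted p = 0.955). The proteoglycan genes among these ADAMTS substrates were rare: Vcan had reads in 5 mice, Acan in 2, Bcan in 5 and Ncan in 1.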

How the data were processed

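The libraries were made from sub-nanogram amounts of RNA with poly(A) priming and PCR amplification. The authors used STAR (GRCm39) for alignment and featureCounts with GENCODE genes for assignment, at standard settings, which ignore strand and drop multi-mapping reads and reads shared between genes. What they deposited are raw counts, whole numbers of reads per gene, for 11 mice. The count columns of mice 10 and 11 carry the next mouse's number in their headers. The sample record was followed, and both are PBS mice of litter 3.

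The genes and lists were chosen with earlier results of these data known. Symbols, exon lengths, shares of exon bases between genes and coding sequences came from GENCODE vM39. The authors counted with their own GENCODE download, and 54749 of the 55359 genes counted have an entry in vM39. Lengths and shared bases may therefore differ from the models used for counting. Counts were normalized by TMM and tested with edgeR 4.0.16 (R 4.3.3), with filterByExpr at a count minimum of 10, litter and treatment as terms, robust quasi-likelihood fits and Benjamini-Hochberg adjustment over 17050 genes, with a threshold of 0.05. Each SE is the size of the log2 fold change divided by the square root of F. Differences within litters are of mean log2 CPM with a prior count of 2, without a test. DESeq2 1.42.0 was an alternative. No libraries were copies: over genes with at least 20 reads, chi-square per gene was at least 67.6 for every pair. Mice are the replicates, and precision was judged from their spread. The tests were tried on simulated data. Values in each mouse are given for the 8 genes of highest level per kilobase, for those with an unadjusted p under 0.05 and for those without overlap. Adamts17 and the within-mouse values of Mmp2 and Mmp9 were added after values were seen.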

Additional observations from a re-analysis of the deposited data

Results flagged for a closer look

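In groups of 5 or 6 mice, 8 values stood apart from the rest of their group by Dixon's criterion, of 58 groups examined. Chance flags about 1 in 20 only where values are not tied. A group with a single value above 0 is always flagged, so the 8 cannot be set against that rate. All were in genes with reads in only some mice, so that a single library with or without reads sets the value. Among OSM mice, mouse 5 had 0.748 CPM of Mmp16 (22 reads) and 1.43 CPM of Adamts16 (42 reads), and mouse 2 had 0.406 CPM of Mmp21 (14 reads), each with 0 in the other 4. Among PBS mice, mouse 10 had 5.71 CPM of Adamts16 and the others at most 0.266. PBS mouse 4 had 1.82 CPM of Mmp23 with at most 0.123 in the others, 0.188 CPM of Adamts7 with 2.21 to 6.69 in the others, and 0 of Mmp2 with 13.1 to 47.1 in the others. PBS mouse 8 had 0 CPM of Adamts17, and the other PBS mice had 2.19 to 10.4.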

How the results depend on the processing

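Mice were tied by litter, which was a term in the reported fit. The 29 genes had no call under any edgeR alternative, whereas DESeq2 called 1 (Adamts17, -7.76). Over all genes, 65 were called without the filter on low counts and 168 by DESeq2. The number of the 29 genes with an unadjusted p under 0.05, 4 as reported, was 7 without the filter (39 genes tested) and 2 without the litter term. It ranged from 0 to 8 when a mouse or litter was left out: 0 without OSM mouse 9, 8 without PBS mouse 7, 2 without OSM mouse 1 or litter 1, and 1 without PBS mouse 4, 10 or 11 or litter 3. The median log2 fold change was -0.49 without the filter and -0.47 with DESeq2, and -0.18 to 0.04 with a mouse or litter left out. For litter, 4 genes (Mmp9, Mmp2, Timp3 and Adamts1) were called without the filter. The causes were not tested, beyond the added genes of low count. Log2 fold changes above 0, 13 of 29 as reported, were 11 of 16 where 10 counts in every mouse were required, 14 of 39 without the filter or with DESeq2 and 12 to 15 of 24 to 29 with a mouse or litter left out. Of 229 alternative values of the 11 genes followed, 13 changed sign, all of Adamts4 (-0.041 without the litter term, -0.33 to 0.22 with a mouse or litter left out), Mmp25 (-0.040 to 0.27) and Mmp24os1 (-0.095 to 0.13). Adamts17 ranged from -10.73 to -0.97. Mmp19 and Adamts17 have no value where 10 counts in every mouse were required. SEs were 0.90 to 4.50 on the log2 scale for the 13 tested genes with reads in only some mice and 0.08 to 0.56 for the 16 with reads in all.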
